A study of Homo sapiens with 6 samples.

Results

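GLIPR1 and 4 related genes were followed in HCC-LM3 cells, a human hepatocellular carcinoma line, after knockdown of ASPP2, the protein encoded by TP53BP2. The set holds GLIPR1, its family members GLIPR1L1, GLIPR1L2 and GLIPR2, and KRR1, the gene next to GLIPR1 on chromosome 12. GLIPR1 was selected on its higher intensity in the knockdown cells on these same arrays. The others were chosen by family name or, for KRR1, by position. Every array feature of the 5 genes was taken, which gave 11 of 45033 features and 5 of 23593 named genes. The array's own annotation used the symbol GLIPR1 for 3 features, and the other 8 carried the older names MGC26856 (GLIPR1L1), MGC39497 (GLIPR1L2), C9orf19 (GLIPR2) and HRB2 (KRR1), which were updated through gene identifiers.

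The study has 2 groups of 3 samples, each sample from its own culture and on its own array. In the shNon group the cells were infected with a lentivirus carrying a control shRNA, and in the shASPP2 group with a lentivirus carrying an shRNA against ASPP2. Both groups therefore carry a virus and an shRNA, were grown in the same medium and were harvested for total RNA after a week of infection. The labels name 1 virus per group and give no shRNA sequence, so effects of that shRNA on other transcripts cannot be told apart from effects of losing ASPP2.

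GLIPR1 belongs to the CAP superfamily, a group of mostly secreted proteins named after the cysteine-rich secretory proteins of mammals and the pathogenesis-related proteins of plants. GLIPR1 itself carries a signal peptide and a membrane-spanning stretch and was first described in glioma. GLIPR1L1 is a protein of sperm, and GLIPR2 is a small CAP protein held at Golgi membranes, where it binds the autophagy protein Beclin. KRR1 is no CAP protein. It is a nucleolar RNA-binding protein of the small-subunit processome, the assembly that cuts and folds the precursor of the small ribosomal subunit RNA.

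TP53BP2 was read first as a check of the labels. Its brighter feature had intensities of 332, 488 and 452 on the shNon arrays and 228, 216 and 147 on the shASPP2 arrays. The log2 difference was -1.11 (SE 0.249, limma adjusted p = 0.203), the other feature had -1.41 (SE 0.209, limma adjusted p = 0.0991), and the shASPP2 arrays lay below the shNon arrays without overlap on both. Random-sequence probes, which match no transcript, read 32.6 ± 0.752 in shNon and 30.6 ± 0.170 in shASPP2 (SD, n = 3), and 2 times that level was used as the mark for a clear signal. Each array had between 58.9% and 60.9% of features over that mark. Of 8 markers of hepatocytes and liver carcinoma, ALB, KRT8 and KRT18 were over the mark on all 6 arrays, and GPC3 was over it on none. Of 3 markers each for leukocytes, endothelium and fibroblasts, 1 was over it on all 6 arrays (CD68, PECAM1 and COL1A1), while CD3E, VWF, ACTA2 and PDGFRB were over it on none. The mean log2 level of the leukocyte markers ran from 6.89 to 7.51 in shNon and from 7.34 to 7.89 in shASPP2, that of the endothelial markers from 7.21 to 7.65 and from 6.80 to 7.06, and that of the fibroblast markers from 5.45 to 5.78 and from 5.50 to 5.88. For the hepatocyte and liver carcinoma markers it ran from 7.11 to 7.61 in shNon and from 7.44 to 7.49 in shASPP2. The mean of the 3 endothelial markers thus did not overlap between the groups. Of single features on the array 18.6% did not, a share that is no matched background for a mean of 3 markers. Of the endothelial markers only PECAM1 was over the mark on all 6 arrays. The part of any of these lists in the values below was not tested. In bulk RNA of this kind, more RNA per cell and more cells with the transcript cannot be told apart.

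GLIPR1 was higher in every knockdown sample on each of its 3 features. These features lie on chromosome 12 between 74160800 and 74179745 (hg18), coordinates that bracket the transcript with its introns. The brightest of them, BC012510 (chromosome 12, 74160863 to 74179053), had intensities of 732, 709 and 762 on the shNon arrays and 3958, 3244 and 3140 on the shASPP2 arrays. The control arrays lay close together, and even the lowest knockdown array was 4.12 times the highest control array. The means were 735 ± 26.4 and 3447 ± 445 (SD, n = 3), a log2 difference of 2.22 (SE 0.177, 95% interval 1.81 to 2.64), or 4.67-fold.

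The second feature, U16307 (74160844 to 74179745), read 206, 163 and 208 in shNon and 897, 937 and 887 in shASPP2. Here the knockdown arrays were the tighter group, and the lowest of them was 4.26 times the highest control array. Its log2 difference was 2.24 (SE 0.180), or 4.74-fold.

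The third, NM_006851 (74160800 to 74179158), read 69.7, 133 and 134 in shNon and 688, 594 and 508 in shASPP2. Its log2 difference was the largest of the 3 at 2.46 (SE 0.293, 95% interval 1.78 to 3.15), and also the least precise. The first shNon array was the low one, at 2.13 times the random-probe level against 4.18 and 4.02 on the other control arrays. Without that array the difference was 2.15.

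The features thus gave log2 differences between 2.22 and 2.46 although their control signals lay 0.83 to 2.77 log2 units apart. Intensities of different probes were not compared as levels. Their log2 values went together over the 6 arrays, with Pearson correlations of 0.948 to 0.992 that rest on the gap between the groups. All 3 were among the 7 features with the highest log2 difference on the array. These are the values for which GLIPR1 was chosen, so they are given as a description and without a test. Their SEs and intervals make no allowance for that choice and are not to be read as a test. Over the whole array, 24 of 45033 features, 0.0533%, were past a limma adjusted p of 0.05 and higher in shASPP2, and 9.46% had groups that did not overlap in that direction.

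**Figure D1:**
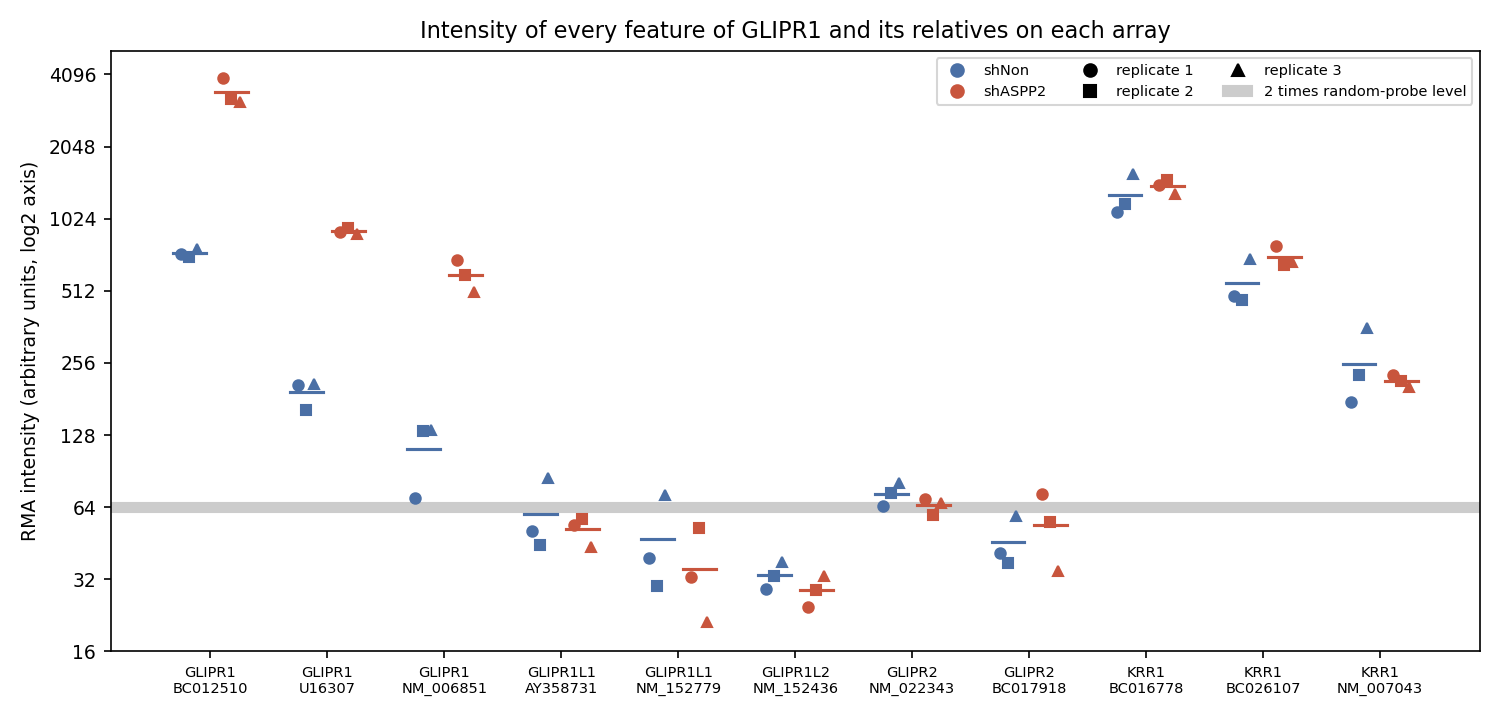
RMA intensity (log2 axis) of the 11 features on each of the 6 arrays, with shNon in blue, shASPP2 in red, a symbol for each replicate number, a bar at each group mean and a grey band at 2 times the random-probe level of the arrays. The 3 GLIPR1 features separate the groups with no overlap, the GLIPR1L1, GLIPR1L2 and GLIPR2 features lie around or under the band, and the KRR1 features lie above it with overlapping groups.

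None of the relatives passed the test. Of their 8 features, 0 passed a limma adjusted p of 0.05 over all 45033 features, where 0.138% of all features did (0.0533% higher and 0.0844% lower in shASPP2), and 0 had an unadjusted p under 0.05, where 11.4% did. The groups overlapped on all 8 features, while 18.6% of all features had groups without overlap (9.46% higher and 9.17% lower). These counts are near the background for so few features. Their log2 differences ran from -0.41 to 0.38. Over 2 times the random-probe level on all 6 arrays were 3 of the 8, against 50.8% of all features, and on at least 1 array 7 of the 8, against 73.5%.

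GLIPR1L1, the sperm protein gene, had 2 features at chromosome 12, 74014685 to 74050437, which end 110 kb before GLIPR1. AY358731 read 51.1, 44.3 and 84.8 in shNon and 53.9, 57.4 and 43.8 in shASPP2. Only the third shNon array was over 2 times the random-probe level. The log2 difference was -0.17 (SE 0.276, 95% interval -0.81 to 0.48, limma adjusted p = 0.853).

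The other GLIPR1L1 feature, NM_152779, read 39.4, 29.9 and 71.7 in shNon and 32.7, 52.3 and 21.3 in shASPP2. Again the third shNon array stood highest and was the only one over the mark. This feature had a log2 difference of -0.41 (SE 0.419, interval -1.38 to 0.57, limma adjusted p = 0.749), an interval that runs from 0.383 to 1.49 times the control level. The log2 values of the features went together over the arrays (Pearson r = 0.909, n = 6), and neither was over the mark on any other array.

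GLIPR1L2 had a single feature, NM_152436 (chromosome 12, 74071155 to 74104087), which ends 56.7 kb before GLIPR1. It read 29.2, 32.9 and 37.9 in shNon and 24.5, 28.9 and 32.9 in shASPP2. These values are between 0.798 and 1.14 times the random-probe level, so no GLIPR1L2 transcript could be told from unspecific signal in either group. The log2 difference of -0.21 (SE 0.199, limma adjusted p = 0.721) is a difference between such signals.

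GLIPR2 lies apart from the others on chromosome 9, at 36126729 to 36153903. NM_022343 read 64.8, 73.5 and 80.4 in shNon and 69.5, 59.2 and 66.6 in shASPP2, close to 2 times the random-probe level on all 6 arrays. Its log2 difference was -0.16 (SE 0.179, interval -0.58 to 0.26, limma adjusted p = 0.769). The interval covers folds from 0.670 to 1.19.

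BC017918, the other GLIPR2 feature, read 41.1, 37.6 and 58.9 in shNon and 72.3, 55.4 and 34.6 in shASPP2. Only the first shASPP2 array was over the mark, and the knockdown arrays spread 2.09-fold. The log2 difference was 0.20 (SE 0.314, limma adjusted p = 0.842). The GLIPR2 features differed in sign and hardly went together (r = 0.116, n = 6), and both intervals include 0.

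KRR1, the processome gene, was the only relative over the mark on all 6 arrays, and it was so on all of its 3 features. Its brightest feature, BC016778 (chromosome 12, 74179599 to 74191655), read 1094, 1180 and 1571 in shNon and 1421, 1491 and 1301 in shASPP2. The groups overlapped, with the third shNon array the highest of the 6. The log2 difference was 0.15 (SE 0.201, interval -0.32 to 0.62, limma adjusted p = 0.816).

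On BC026107 (74179518 to 74191668) KRR1 read 486, 467 and 696 in shNon and 787, 659 and 677 in shASPP2. Here 2 control arrays were below all knockdown arrays, and the third was within their range. It had the highest log2 difference of the relatives at 0.38 (SE 0.215, interval -0.12 to 0.89, limma adjusted p = 0.551), or 1.30-fold.

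NM_007043 (74177687 to 74191659) read 175, 229 and 359 in shNon and 227, 215 and 204 in shASPP2. The knockdown arrays lay within the range of the control arrays. The log2 difference was -0.18 (SE 0.274, interval -0.82 to 0.46, limma adjusted p = 0.842). KRR1 features thus pointed both ways, and the upper ends of their intervals were 1.53-fold, 1.85-fold and 1.38-fold.

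**Figure D2:**
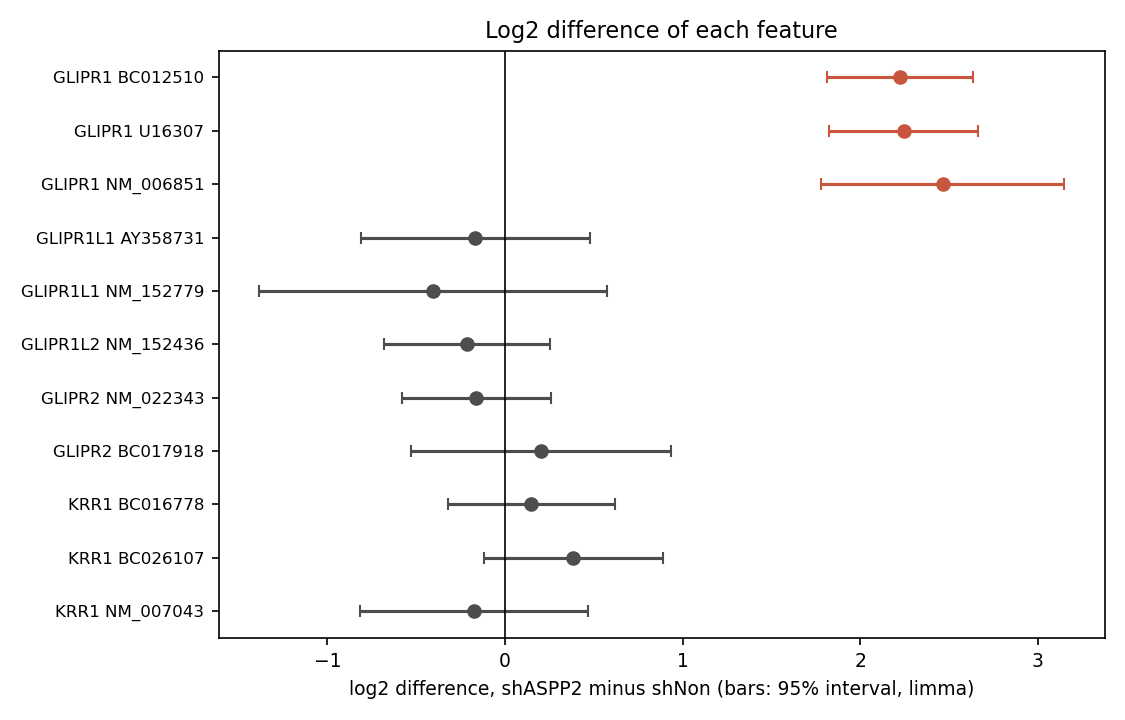
Log2 difference, shASPP2 minus shNon, of each of the 11 features, with 95% intervals from limma. The 3 GLIPR1 features (red) lie between 2.22 and 2.46, and the intervals of the 8 other features (grey) all include 0. GLIPR1 was chosen on these values, and its intervals make no allowance for that.

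The third shNon array gave the highest control value on all 11 features, among them the 8 of the relatives, while it was the highest control array on 41.6% of all features. Over all features, correlations between arrays were lower within shNon (0.958 to 0.972) than within shASPP2 (0.983 to 0.984). Without it, the KRR1 differences were 0.30 (limma adjusted p = 0.560) on BC016778, 0.57 (interval 0.12 to 1.02, adjusted p = 0.338) on BC026107 and 0.10 (adjusted p = 0.874) on NM_007043, so the last turned sign. On AY358731 the GLIPR1L1 difference then turned from -0.17 to 0.11. The GLIPR1 differences without that array were 2.25, 2.30 and 2.62. Leaving out the highest control array must raise each difference, so the direction of these shifts was fixed by the choice of array. Over the omissions of each single array, BC026107 ran from 0.28 to 0.57.

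GLIPR1 and KRR1 share sequence positions at their ends. The GLIPR1 span overlaps that of NM_007043 by 2059 bases, that of BC026107 by 228 bases and that of BC016778 by 147 bases. Of the GLIPR1 features, U16307 reaches into all 3 KRR1 features, while NM_006851 and BC012510 reach 1472 and 1367 bases into NM_007043. Probe positions and strand were not used here, and whether a probe lies within the shared stretch was not tested. NM_007043, the KRR1 feature with the longest shared stretch, had a difference of -0.18 beside the 2.22 to 2.46 of the GLIPR1 features.

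Around GLIPR1, 7 other named genes have features within 1 Mb on either side, with 16 features in all. Of the 16, 0 passed a limma adjusted p of 0.05, and by the brightest feature of each gene 0 of 7 did so, against 0.14% of all named genes, 0.0551% higher and 0.0848% lower (0 of 7 at an unadjusted p under 0.05, against 11.6%). Their median log2 difference was 0.24, and that of all named genes was 0.01. CAPS2 and KCNC2, a potassium channel gene, are the nearest measured genes on the GLIPR1L1 side. The brightest CAPS2 feature had -0.14 (SE 0.297) and the brightest KCNC2 feature 0.50 (SE 0.352). Apart from 1 array on 1 KCNC2 feature, none of the 8 features of these genes was over the mark on any array. Among these dim signals, the CAPS2 feature BC056672 had -0.74 (SE 0.168, limma adjusted p = 0.208) with no overlap.

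On the KRR1 side the nearest measured genes are LOC645738, 360 kb away, and PHLDA1, 529 kb away. LOC645738 read 1367, 1169 and 702 in shNon and 1639, 1456 and 1393 in shASPP2, with no overlap and a log2 difference of 0.52 (SE 0.270, limma adjusted p = 0.519). PHLDA1, a gene known to respond to growth signals, had 0.24 (SE 0.207, limma adjusted p = 0.693) on its brightest feature. Its other features had 0.18 and 0.89 (SE 0.205, limma adjusted p = 0.213). The PHLDA1 features at 0.24 and 0.89 had no overlap between the groups. Of the 16 neighbouring features, 3 were higher in shASPP2 without overlap and 1 was lower, against 9.46% and 9.17% of all features. ATXN7L3B, at the far end of the window, had 0.35 (SE 0.220, limma adjusted p = 0.588).

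**Figure D3:**
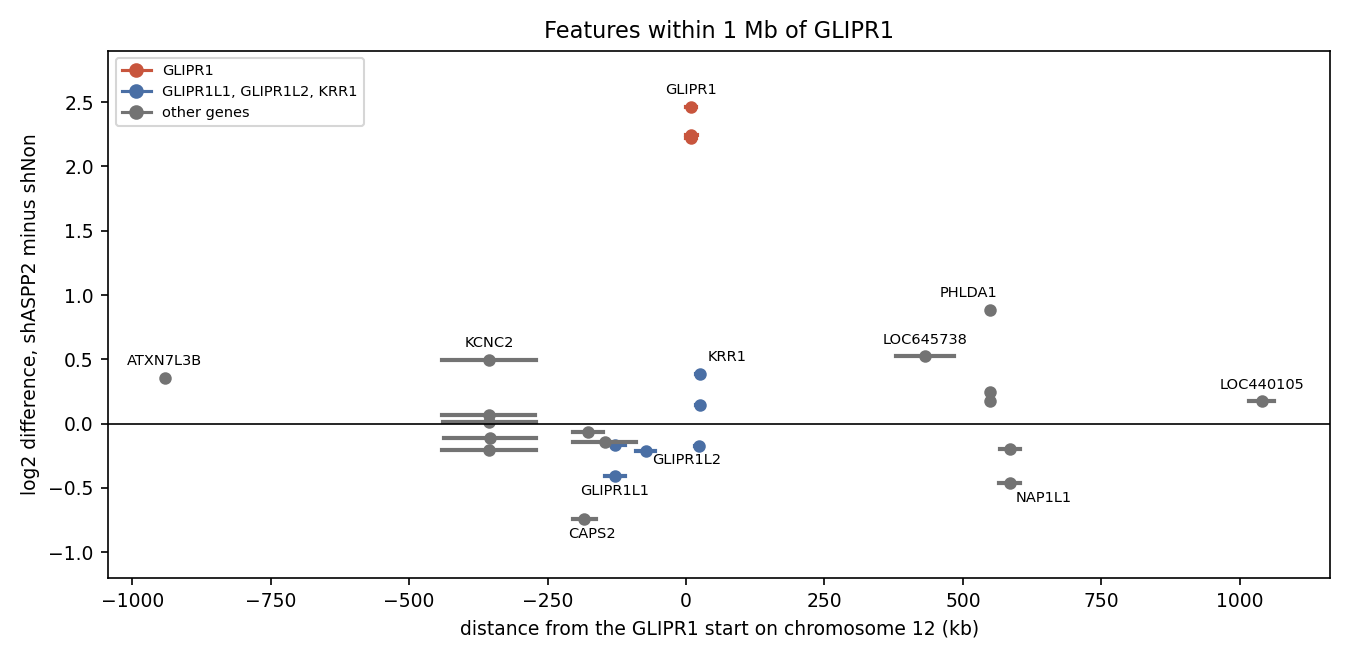
Log2 difference of every feature within 1 Mb of GLIPR1 against distance from the GLIPR1 start in kb, with a line for the stretch each feature spans and a point at its middle. The GLIPR1 features lie at 2.22 to 2.46, and the other features between -0.74 and 0.89.

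RefSeq promoter windows (GRCh38.p14) were matched by symbol for 3 of the 5 genes, KRR1, GLIPR1L1 and GLIPR2. The 250 bases before the start are shown for KRR1, which was over the mark on all arrays, and GLIPR1L1, which was mostly under it, with each CG dinucleotide in capitals. The KRR1 window is chr12:75511610-75511859 on the minus strand and the GLIPR1L1 window chr12:75334420-75334669 on the plus strand.
KRR1: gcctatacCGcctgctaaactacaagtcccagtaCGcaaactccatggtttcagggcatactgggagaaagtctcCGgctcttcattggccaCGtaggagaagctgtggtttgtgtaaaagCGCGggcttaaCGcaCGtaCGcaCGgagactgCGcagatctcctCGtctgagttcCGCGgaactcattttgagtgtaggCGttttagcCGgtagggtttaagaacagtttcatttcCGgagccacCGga
GLIPR1L1: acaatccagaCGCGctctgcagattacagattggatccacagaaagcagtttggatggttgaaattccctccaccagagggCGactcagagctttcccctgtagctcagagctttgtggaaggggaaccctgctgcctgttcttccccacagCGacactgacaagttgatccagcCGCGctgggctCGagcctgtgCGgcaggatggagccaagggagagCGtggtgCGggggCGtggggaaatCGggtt
The KRR1 window holds 18 CG dinucleotides, which 36.8% of 35116 RefSeq windows of this length reach or pass, and the GLIPR1L1 window 12, which 48.5% do. The windows of the GLIPR2 starts, which overlap each other, hold 33 and 30, which 8.15% and 12.4% do. Both GLIPR2 features were dim. Whether CG counts go with intensity was not tested. GLIPR1 and GLIPR1L2 have no window shown.

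The other CAP genes were mostly dim on these arrays. Of 11 measured members, 0 were over 2 times the random-probe level on all 6 arrays, where 51.1% of named genes were, and 5 were over it on at least 1, where 75.4% were. None of the 11 passed a limma adjusted p of 0.05 over all features, and 0 had an unadjusted p under 0.05, counts near the 0.14% and 11.6% of named genes for a list of this length. The median log2 difference was -0.16, but 0.15 without the third shNon array and 0.05 without the third shASPP2 array. Groups without overlap were seen for 1 of the 11, CLEC18B, where 18.8% of named genes had them. CRISPLD2, a secreted CAP protein that binds lipopolysaccharide, had the largest difference of the list. It read 40.6, 128 and 91.1 in shNon and 163, 136 and 127 in shASPP2, with 1 control array inside the range of the knockdown arrays, and a log2 difference of 0.86 (SE 0.401, limma adjusted p = 0.478). CLEC18B and CLEC18C, lectin genes with a CAP domain, had differences of -0.84 (SE 0.391, limma adjusted p = 0.477) and 0.58 (SE 0.362, limma adjusted p = 0.587). CLEC18B read 48.7, 113 and 47.9 in shNon and 40.6, 24.9 and 45.2 in shASPP2, over the mark on 1 shNon array only. CLEC18C was over it on 1 shNon array and 2 shASPP2 arrays, so both differences rest on dim signal. CLEC18B and CLEC18C are near-identical in sequence, so the array may not separate them. The CLEC18C feature also lies within the positions of the CLEC18A feature (chromosome 16, 68542310 to 68555390). CLEC18A had a difference of -0.45 (SE 0.259, limma adjusted p = 0.563).

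KRR1's partners in the small-subunit processome were well measured, with all 42 over the mark on all 6 arrays, where 51.1% of named genes were. The shares of named genes given below were not matched to the list for brightness. None of the 42 passed a limma adjusted p of 0.05 over all features, where 0.14% of named genes did, and 11, 26.2%, had an unadjusted p under 0.05, where 11.6% of named genes did. Groups did not overlap for 15 genes higher in shASPP2, 35.7% of the list against 9.3% of named genes, and for 1 gene lower, against 9.52%. The median log2 difference was 0.19, that of all named genes 0.01, and 35 of the 42 values were above 0. Without single arrays the list's median lay between 0.19 and 0.23, and the number at an unadjusted p under 0.05 between 2 and 8. That number was 5, 7 and 6 without shNon replicates 1, 2 and 3 in turn, and 8, 3 and 2 without shASPP2 replicates 1, 2 and 3 in turn. Over all 45033 features the numbers in the same order were 5324, 5792 and 5374, and 3817, 3798 and 3317. The list's share was thus near that of all features without shNon replicate 1. It was under that of all features without shASPP2 replicate 2 or 3. It was above that of all features without shNon replicate 2 or 3 and without shASPP2 replicate 1. That genes for building ribosomes tended higher on these arrays was known when the list was made, so the list is no independent evidence of its direction.

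DHX37, an RNA helicase of the processome, had the largest difference of the list. It read 211, 320 and 243 in shNon and 403, 469 and 442 in shASPP2, with no overlap, a log2 difference of 0.78 (SE 0.210) and a limma adjusted p of 0.260. NOL11, which links the processome to transcription of ribosomal RNA genes, read 771, 743 and 1062 in shNon and 1624, 1282 and 1272 in shASPP2. Its difference was 0.71 (SE 0.216, limma adjusted p = 0.308), and it passed with the trend and robust options (adjusted p = 0.0336). RRP7A had 0.65 (SE 0.229, limma adjusted p = 0.363). PNO1, an RNA-binding protein of the same kind as KRR1, read 839 ± 44.6 in shNon and 1049 ± 23.9 in shASPP2 (SD, n = 3) with a difference of 0.32 (SE 0.162, limma adjusted p = 0.504). PNO1 is named outside the rule, for its kinship to KRR1, after its value was seen.

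Genes reported to act with or on GLIPR1 or GLIPR2 were also read, 9 in all and each over the mark on all arrays. Of the 9, 0 passed a limma adjusted p of 0.05 and 0 had an unadjusted p under 0.05, against 0.14% and 11.6% of named genes. The groups overlapped for all 9, while 18.8% of named genes had groups without overlap, so these counts are near the background for so few genes. Their median log2 difference was 0.06, and -0.04 without the third shNon array. CAV1, which encodes the caveolin that GLIPR2 binds, had -0.27 (SE 0.183, limma adjusted p = 0.623). WASL, which encodes the actin regulator N-WASP, had 0.35 (SE 0.311, limma adjusted p = 0.705).

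**Figure D4:**
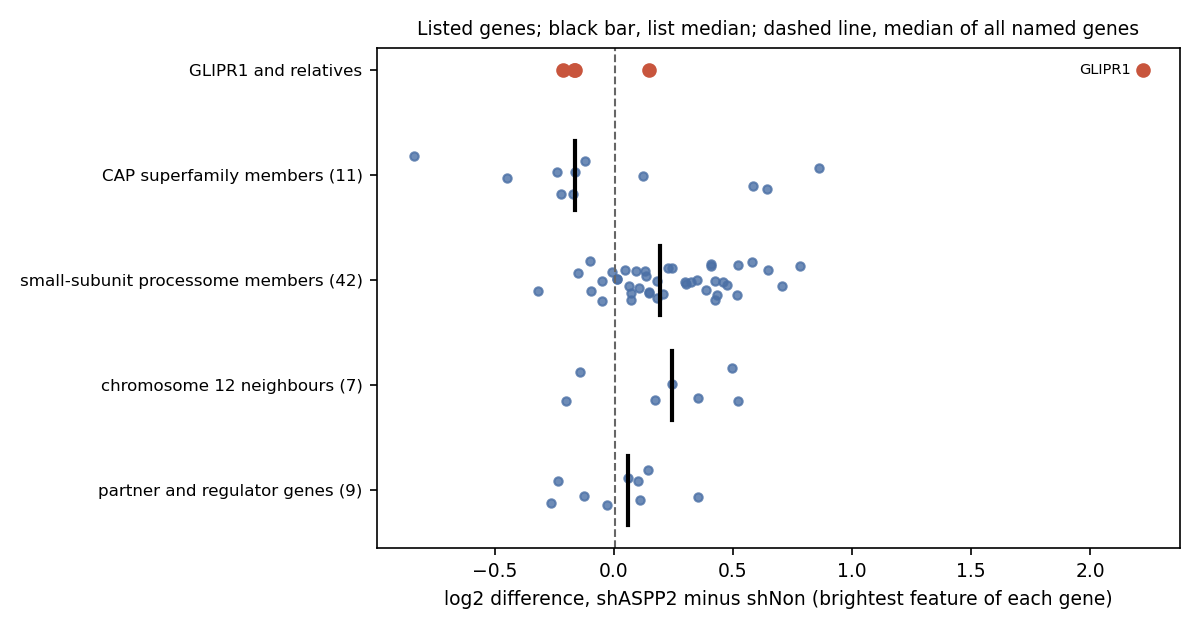
Log2 difference of the brightest feature of each gene for GLIPR1 and its relatives (red) and for the 4 gene lists (blue), with a black bar at each list's median and a dashed line at the median of all named genes, 0.01. GLIPR1 lies at 2.22, and the listed genes lie between -0.84 and 0.86.

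The genes whose log2 values over the 6 arrays were most like BC012510 were sought among 4885 features with a mean above the median of all features and a range of at least 1 log2 unit. The 5 with the highest Pearson correlation were CHORDC1 (0.996), HSPH1 (0.994), INSIG1 (0.993), H2BC17 (0.992) and ZNF845 (0.991). CHORDC1 and HSPH1 encode co-chaperones, INSIG1 an inhibitor of sterol synthesis, and H2BC17 a histone that has near-identical copies. Such values rest mainly on the gap between the groups, which all 5 share with GLIPR1 on the same 6 arrays. CHORDC1 read 1736, 1629 and 1817 in shNon and 3622, 3169 and 3075 in shASPP2. As for BC012510, the first shASPP2 array was the highest and the second shNon array the lowest. The log2 differences of the 5 genes were 0.93, 1.00, 1.75, 0.93 and 0.88 in the order above. GLIPR1 was chosen for its high difference, so smaller values in other genes were largely set by that choice. Among the relatives, the correlation with BC012510 ran from -0.59 for GLIPR1L2 to 0.73 for the KRR1 feature BC026107.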

How the data were processed

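Total RNA of 6 samples was hybridised to 6 NimbleGen arrays with Cy3 label. For each feature and array the authors deposited a linear intensity, computed by RMA according to the submitters' processing notes, with 3 probes behind 45031 of the 45033 features. RMA settings were not given in the sources used here. RMA as usually defined shares 1 intensity distribution between arrays and compresses dim features. Positions are on hg18, per the gene annotation in the files. Symbols were updated through RefSeq gene identifiers. Intensities were log2-transformed and fitted with limma 3.58.1 (lmFit, eBayes) under R 4.3.3 on group alone. P-values are two-sided with Benjamini-Hochberg adjustment over all 45033 features and a threshold of 0.05. Errors are SD over 3 arrays or limma's SE, and the number of arrays limits the precision. The fit was first tested on simulated data. For listed genes the feature with the highest mean log2 value was used.

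The members and lists were chosen with earlier results of these data known. Named are all member features, TP53BP2, of each list the members past the threshold and the 3 largest differences over 2 times the random-probe level, the 2 nearest neighbours on each side, and the 5 genes most like GLIPR1; 1 gene this rule names is not reported here. Lists are described by counts and medians, with no set test. The alternatives were the deposited value table (0 differing cells), median centring, cyclic loess, a filter on dim features, trend with robust variance, the replicate block, the mean of a gene's features, and leaving out each array.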

Additional observations from a re-analysis of the deposited data

How the results depend on the processing

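Over the member features, 128 of 131 values from alternative settings kept their direction and their side of the threshold (or, for GLIPR1, moved by no more than the spread between arrays). The deposited value table, the filter on dim features, trend with robust variance and the replicate block leave each log2 difference unchanged. Those settings therefore could not turn a sign. The GLIPR1 values were not judged by the threshold in any setting. The other 3 turned sign, all on features whose intervals include 0, namely GLIPR1L1 AY358731 at 0.11 and KRR1 NM_007043 at 0.10 without shNon replicate 3, and GLIPR2 BC017918 at -0.039 without shASPP2 replicate 1. GLIPR1 ranged from 2.12 to 2.29 on BC012510, 2.13 to 2.30 on U16307 and 2.15 to 2.62 on NM_006851 when single arrays were left out. Under the same omissions AY358731 ran from -0.36 to 0.11, BC017918 from -0.039 to 0.49 and NM_007043 from -0.41 to 0.10. The 8 features of the relatives gave 0 calls in limma in every setting run, and GLIPR1L2 was removed by the filter on dim features.

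Over all features, 62 passed limma at an adjusted p of 0.05, 952 with trend and robust variance, 0 with the replicate block (4212 at an unadjusted p under 0.05) and between 0 and 17 without single arrays (17, 4 and 17 without shNon replicates 1, 2 and 3, and 0 without each shASPP2 replicate, with 3317 to 5792 at an unadjusted p under 0.05). Of the processome genes 1 passed with trend and robust variance. The deviations of same-numbered arrays correlated at 0.06, -0.08 and -0.13. These values gave no sign that the replicate numbers pair the arrays, but they cannot exclude it. The block is therefore given as an alternative. Median centring moved the median of all features from 0.01 to -0.02 and left the direction of the member features as it was. Dim signal limits GLIPR1L1, GLIPR1L2 and GLIPR2.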
